A study of Mus musculus with 7 samples.

Results

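Kinesins are motor proteins that hydrolyse ATP to walk along microtubules or to take them apart at their ends. One set builds and runs the mitotic spindle and splits the daughter cells, and is made almost only in dividing cells, while another carries organelles, vesicles and RNA through the cytoplasm of resting cells. Alveolar macrophages, phagocytes that live in the airspaces of the lung, renew themselves by local division and move endosomes and lysosomes along microtubules, so both sets are relevant to them. The kinesin genes described here were chosen by symbol and by detection: each gene of the count table whose symbol is Kif followed by a digit and that had a count above 0 in at least 3 of 7 libraries was taken. Of 38 such symbols among 27179 genes, 31 met the rule, and these fell by name into 11 mitotic kinesins (Kif2c, Kif4, Kif11, Kif14, Kif15, Kif18a, Kif18b, Kif20a, Kif20b, Kif22 and Kif23) and 20 others, called transport kinesins here although some, such as Kif2a and Kif19a, are known to disassemble microtubules. The rule used detection in any library and not the genotype of the library. The members and the mitotic list were, however, chosen with earlier results of these data known. All 31 passed the filter on low counts.

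RNA had been sequenced from alveolar macrophages sorted out of the lungs of bone marrow chimeras on the C57BL/6 background. The Suz12 cKO group (n = 3) came from lethally irradiated C57BL/6-Ly5.1 recipients given a graft of 90% Ly5.2 marrow with the conditional knockout of Suz12 and 10% wild-type Ly5.1 marrow. The WT group (n = 4) came from like recipients whose 90% Ly5.2 marrow was wild type, with the same 10% wild-type Ly5.1 marrow. Suz12 is a core subunit of the polycomb repressive complex that methylates histone H3 at lysine 27, and the comparison asks how the macrophage transcriptome differs without it. The labels name neither the Cre line nor the deleted exons, and do not say whether cells from the 10% wild-type marrow or from the host were kept out of the sort, so a Suz12 cKO library may hold some Suz12-intact cells. In bulk RNA, fewer cells that make a transcript and less of it per cell cannot be told apart, which holds for every value below.

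Libraries held 63923829 to 70473901 counts in Suz12 cKO and 48104653 to 79281431 counts in WT, of which kinesin genes took 0.109 to 0.121%. Suz12 itself (chr11:79993106-80034123, GRCm38) had 22.1, 23.6 and 15.1 CPM (counts scaled to 1e6 per library) in Suz12 cKO, against 56.5, 56.3, 73.9 and 68.9 CPM in WT (log2 fold change -1.65, SE 0.18, adjusted p = 0.00134, edgeR); counts over all its exons do not measure the intact gene. All 15 alveolar macrophage markers reached at least 1 CPM in each library, and they summed to 76726 to 83028 CPM in Suz12 cKO and 64138 to 80751 CPM in WT, most of it from Lyz2 and Chil3. Of the 15, 6 were called higher, such as Fabp4, Itgax and Marco, and Plet1 was called lower (46.7% called, against 10.3% of all genes tested). Markers of monocytes and interstitial macrophages summed to 5589 to 7978 CPM in Suz12 cKO and 2113 to 4335 CPM in WT, most of it from Fn1. Without Fn1 they summed to 779 to 1279 CPM in Suz12 cKO and 268 to 1396 CPM in WT, with 11 of 14 at 1 CPM or more. WT replicate 2 was the highest of the 7 libraries, and the other WT libraries reached at most 298 CPM, below each Suz12 cKO library. Of the 15 monocyte and interstitial macrophage markers, 5 were called higher and none lower (33.3% called). Neutrophil markers summed to 186 to 253 CPM in Suz12 cKO and 113 to 139 CPM in WT, with 6 of 9 at 1 CPM or more and Ly6g and Camp at 0 in every library. Of 6 neutrophil markers tested, 4 were called higher and none lower (66.7% called). Haemoglobin, a sign of RNA from blood and tissue, was at 192 and 155 CPM in the first and second Suz12 cKO libraries and at 56.6 CPM in WT replicate 2, and at 2.29 to 5.17 CPM in the other 4 libraries. The 3 are called high in tissue RNA below; since each side of this split holds a single library of 1 genotype (WT replicate 2, and Suz12 cKO replicate 3), values within a side are given with no test.

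The kinesin genes divided by class. Of the 11 mitotic kinesins, 9 fell in Suz12 cKO macrophages and none rose, with a median log2 fold change of -1.52 and a range of -3.22 to -0.80. Of the 20 transport kinesins, 4 rose (Kif1a, Kif19a, Kif21b and Kif3c) and none fell, with a median of 0.30 and a range of -0.29 to 4.20. Over all 14436 genes tested, 4.02% were called lower, 6.28% higher and 10.3% in either direction, with a median of 0.00. Calls were made by edgeR's quasi-likelihood test, with adjusted p under 0.05. The ranges of CPM did not overlap between the genotypes, with Suz12 cKO lower, for 9 mitotic kinesins and no transport kinesin, where the share over all genes was 11.5%. They did not overlap with Suz12 cKO higher for 5 transport kinesins, where the share over all genes was 14.1%. The plot of log2 fold changes shows the classes apart.

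**Figure D1:**
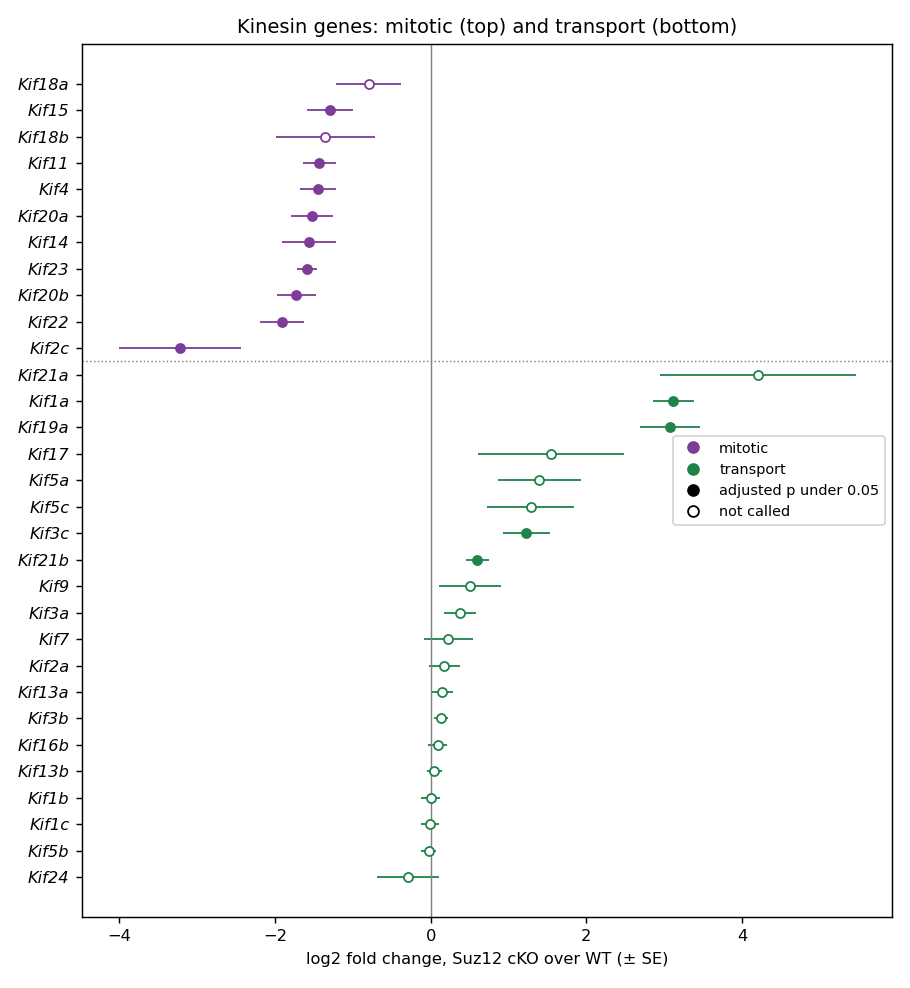
Log2 fold change of each of the 31 kinesin genes, Suz12 cKO over WT, with bars of 1 SE; filled points passed the test and open points did not. The 11 mitotic genes lie between -3.22 and -0.80 and the 20 transport genes between -0.29 and 4.20.

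Levels of different genes are compared per length, as CPM per kb of exon. By this measure the 11 mitotic kinesins summed to 14.9, 12.5 and 15.05 in Suz12 cKO, against 53.5, 38.3, 41.2 and 40.2 in WT. The means were 14.1 ± 1.45 in Suz12 cKO and 43.3 ± 6.88 in WT (SD, n = 3 and 4), a ratio of 0.327. The 20 transport kinesins summed to 164 ± 7.77 in Suz12 cKO and 149 ± 4.87 in WT, a ratio of 1.10. Mitotic kinesins thus made up 8.07, 7.43 and 8.23% of the kinesin total in Suz12 cKO, against 26.9, 20.1, 21.2 and 21.8% in WT. WT replicate 1 was the highest WT library for 9 of the 11 mitotic genes.

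The promoters of the mitotic genes are shown because genes of this class are known to share an element, the cell cycle genes homology region (CHR), near their start sites. The CHR is known as the site at which the DREAM complex represses such genes in resting cells and at which the MMB complex, with Foxm1, activates them as cells enter mitosis. Promoter windows of 300 bases, 250 before and 50 from the annotated start, came from RefSeq (GRCm38.p6) and matched 10 of 11 mitotic and 15 of 20 transport genes. The sequences below run 5′ to 3′ on the gene's strand from 120 bases before the start through the first 25 bases of the transcript. Capitals mark matches to the CHR (TTTGAA or TTCGAA), to the CCAAT box known to bind NF-Y (CCAAT), and to E2F sites, each on either strand and so also as their reverse complements. The E2F letters searched were TTTCCCGC and, beside it, TTTGGCGC, with the further forms TTTCGCGC and, as the last, TTTGCCGC. The printed stretches are at chr9:61946775-61946919 (minus strand) for Kif23, chr7:127042396-127042540 (minus) for Kif22, chr19:37376262-37376406 (plus) for Kif11, chr9:122950961-122951105 (plus) for Kif15, chr19:34922238-34922382 (plus) for Kif20b, chrX:100625945-100626089 (plus) for Kif4, chr11:102925100-102925244 (minus) for Kif18b and chr2:109280618-109280762 (plus) for Kif18a. The first 6 genes were called lower and hold a CHR close to the start; Kif18b holds one and was not called; Kif18a holds none and was not called.
Kif23: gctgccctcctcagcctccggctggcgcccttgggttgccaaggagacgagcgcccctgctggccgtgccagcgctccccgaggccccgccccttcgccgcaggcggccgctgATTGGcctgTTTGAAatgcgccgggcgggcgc
Kif22: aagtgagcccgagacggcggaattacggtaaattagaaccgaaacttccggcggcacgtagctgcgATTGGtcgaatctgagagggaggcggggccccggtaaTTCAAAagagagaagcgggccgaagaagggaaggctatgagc
Kif11: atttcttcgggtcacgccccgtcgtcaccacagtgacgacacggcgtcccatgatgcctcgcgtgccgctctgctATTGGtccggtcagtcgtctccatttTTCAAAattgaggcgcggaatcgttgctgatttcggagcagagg
Kif15: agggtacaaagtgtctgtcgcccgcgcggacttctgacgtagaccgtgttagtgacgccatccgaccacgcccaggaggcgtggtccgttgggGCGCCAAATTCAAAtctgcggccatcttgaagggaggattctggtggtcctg
Kif20b: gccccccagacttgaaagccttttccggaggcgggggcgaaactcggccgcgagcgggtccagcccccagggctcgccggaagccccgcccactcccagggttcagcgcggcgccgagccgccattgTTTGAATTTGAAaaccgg
Kif4: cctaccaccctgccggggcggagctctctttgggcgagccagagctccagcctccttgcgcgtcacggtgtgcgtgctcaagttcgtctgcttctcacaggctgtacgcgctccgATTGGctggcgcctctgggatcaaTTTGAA
Kif18b: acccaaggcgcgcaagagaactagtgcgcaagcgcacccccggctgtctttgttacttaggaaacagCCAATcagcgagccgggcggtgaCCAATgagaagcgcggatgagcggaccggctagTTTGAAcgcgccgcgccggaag
Kif18a: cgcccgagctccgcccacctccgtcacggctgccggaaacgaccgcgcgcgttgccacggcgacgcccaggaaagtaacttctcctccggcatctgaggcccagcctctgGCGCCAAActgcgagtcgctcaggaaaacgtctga

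A CHR was found in the 300-base windows of 9 of the 10 mitotic genes (90.0%), in 2 of the 15 transport genes (13.3%) and in 21.7% of all 27025 genes of the promoter table. In 7 mitotic genes and no transport gene it lay within 20 bases of the start (share over all genes not computed). In Kif22 its first base was 17 bases before the start, and in Kif11 and Kif15 it was 19 bases before. In Kif23, Kif18b and Kif4 it began at base 3, 4 and 20 of the transcript, and in Kif20b a pair of copies began at bases 8 and 14. The windows of Kif2c and Kif14 lie at starts 3852 and 1547 bases inside the gene, and there the CHR was 103 and 228 bases before the start. The 2 transport genes were Kif24 and Kif1a, and in Kif1a it was found only at a start 19559 bases inside the gene. The CCAAT box was in 6 mitotic genes of 10, 4 of 15 transport genes (26.7%) and 41.1% of all genes. E2F sites were in 2 mitotic genes (20.0%, Kif15 and Kif18a), no transport gene and 2.6% of all genes; in Kif15 the E2F site and the CHR abut without overlap. A match describes these letters and says nothing of which factor was bound.

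**Figure D2:**
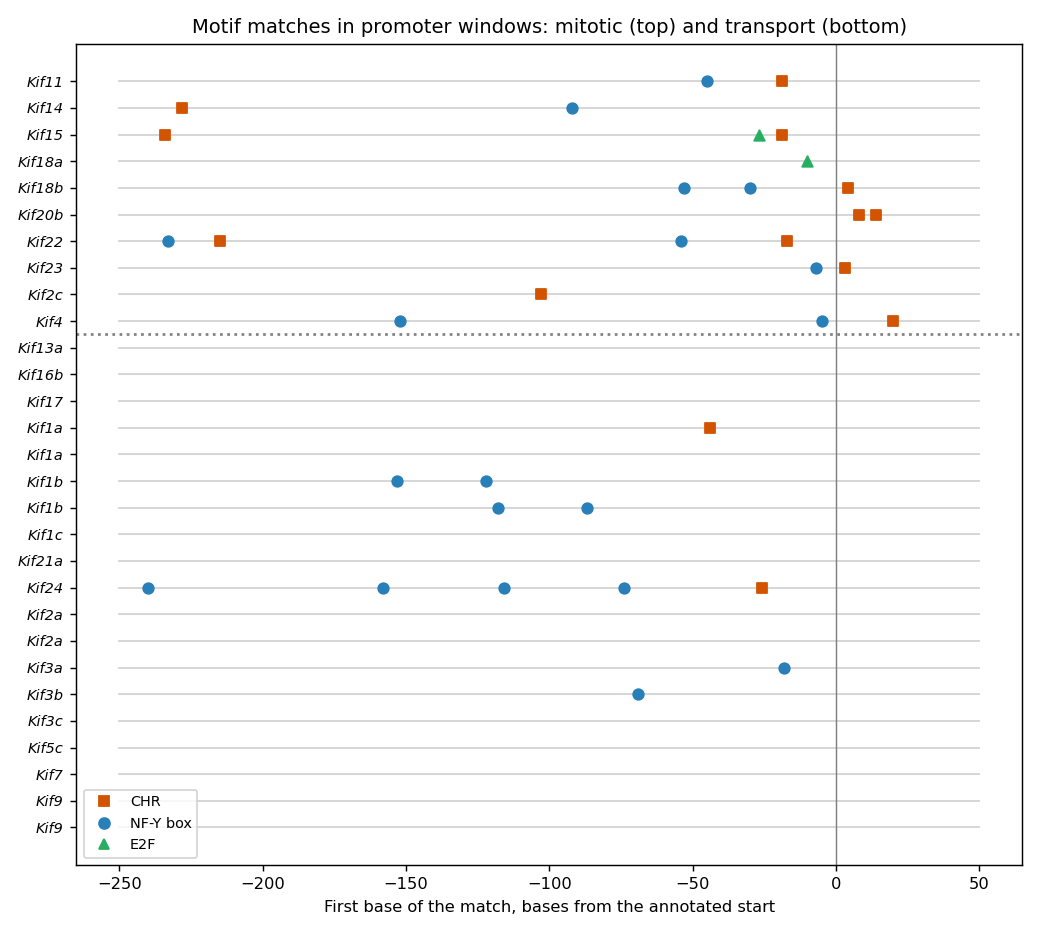
Position of motif matches in the promoter windows of mitotic (above the dotted line) and transport kinesin genes (below), by distance in bases of the first base of the match from the annotated start; a gene with 2 annotated starts has 2 lines. CHR matches (squares) sit in 9 of 10 mitotic genes, 7 of them within 20 bases of the start, and in 2 of 15 transport genes.

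The kinesins of the central spindle and of cell separation all fell. Kif23, the motor of the centralspindlin complex that organises the midzone for cytokinesis, had 12.6, 13.3 and 15.1 CPM in Suz12 cKO, against 47.8, 37.8, 39.3 and 38.9 CPM in WT (Entrez 71819, chr9:61917277-61946810, GRCm38). The Suz12 cKO libraries lay close together, and all were far below the lowest WT library. Its log2 fold change was -1.59 (SE 0.13, adjusted p = 0.000465), and it was the mitotic kinesin with the highest level per length in both genotypes, at 3.98 CPM per kb in Suz12 cKO and 12.0 in WT. Kif20a, which carries the chromosomal passenger complex to the midzone, had 8.43, 4.6 and 7.77 CPM in Suz12 cKO, against 25.2, 17.8, 21.6 and 15.1 CPM in WT (Entrez 19348, chr18:34624624-34633277). The ranges did not overlap, and the log2 fold change was -1.52 (SE 0.27, adjusted p = 0.00877). Kif20b, known to act in the last step of separation, had 4.25, 4.55 and 6.72 CPM in Suz12 cKO, against 21.3, 13.2, 14.9 and 19.1 CPM in WT (Entrez 240641, chr19:34922335-34975750; log2 fold change -1.73, SE 0.25, adjusted p = 0.00399). Again each Suz12 cKO library lay below each WT library, and Suz12 cKO replicate 3 was the highest of its group, as it was for Kif23. Kif14, which recruits citron kinase to the midbody, had 4.81, 1.67 and 3.20 CPM in Suz12 cKO, against 9.22, 9.47, 8.80 and 10.6 CPM in WT (Entrez 381293, chr1:136466301-136555938; log2 fold change -1.56, SE 0.34, adjusted p = 0.0234). The WT libraries differed little among themselves, while Suz12 cKO replicate 2 was well below the other Suz12 cKO libraries. The call on Kif14 was lost without Suz12 cKO replicate 3 (adjusted p = 0.0664), WT replicate 1 (0.0543), WT replicate 3 (0.0531) or WT replicate 4 (0.0541), at log2 fold changes of -1.61 to -1.52. It was also lost with the replicate number as a block.

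The motors that build the bipolar spindle fell as well. Kif11, which slides antiparallel microtubules to push the spindle poles apart, had 9.55, 6.75 and 9.49 CPM in Suz12 cKO, against 28.9, 18.4, 25.0 and 20.3 CPM in WT (Entrez 16551, chr19:37376382-37421863). The ranges were well apart, with a log2 fold change of -1.43 (SE 0.21, adjusted p = 0.0045). Kif15, which can keep the poles apart when Kif11 is lacking, had 3.90, 4.93 and 7.0 CPM in Suz12 cKO, against 17.8, 10.0, 14.0 and 9.96 CPM in WT (Entrez 209737, chr9:122951081-123018733). The groups did not overlap, but the highest Suz12 cKO library and the lowest WT library were closer than for Kif11, and the log2 fold change was -1.29 (SE 0.29, adjusted p = 0.0265). The call on Kif15 was lost without Suz12 cKO replicate 1 (adjusted p = 0.0967), Suz12 cKO replicate 2 (0.101), WT replicate 1 (0.066) or WT replicate 3 (0.0681), with log2 fold changes of -1.26 to -1.10. It was also lost with the replicate number as a block.

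Among the motors that act on chromosomes, Kif22, a chromokinesin that binds DNA and pushes chromosome arms from the poles, had 3.76, 3.59 and 2.35 CPM in Suz12 cKO, against 16.4, 12.3, 10.0 and 9.81 CPM in WT (Entrez 110033, chr7:127027729-127042467). Each Suz12 cKO library was far below each WT library, with a log2 fold change of -1.91 (SE 0.28, adjusted p = 0.00411). Kif4, a chromokinesin of chromosome condensation and of the midzone, had 4.20, 3.00 and 3.60 CPM in Suz12 cKO, against 11.6, 10.8, 8.62 and 8.29 CPM in WT (Entrez 16571, chrX:100626065-100727271; log2 fold change -1.45, SE 0.24, adjusted p = 0.00647). The groups did not overlap. In the Gencode annotation 832 of the 5514 exon bases of Kif4 overlap Pdzd11 on the other strand, and 1271 of 4338 of Kif20a overlap Cdc23; whether strand was used in counting is not stated, so these values are uncertain. Pdzd11 and Cdc23 themselves were not called, at log2 fold changes of -0.34 (adjusted p = 0.178) and -0.20 (adjusted p = 0.43).

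The microtubule-depolymerising members varied between libraries. Kif2c, which removes faulty attachments of chromosomes to the spindle, had 2.07, 1.13 and 0.0979 CPM in Suz12 cKO, against 10.2, 7.91, 7.78 and 14.8 CPM in WT (Entrez 73804, chr4:117159633-117182624). Suz12 cKO replicate 3, with 7 counts, was far below the other Suz12 cKO libraries, with 131 and 74 counts. The log2 fold change was -3.22 (SE 0.79, adjusted p = 0.0348), the most negative of the 31 kinesin genes, and the groups did not overlap. The adjusted p was 0.119 without Suz12 cKO replicate 2 and 0.076, 0.0662 and 0.0792 without WT replicates 1, 3 and 4, at log2 fold changes of -3.34 to -2.99. The call on Kif2c was also lost with the replicate number as a block.

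Kif18a and Kif18b were the mitotic members that did not pass the test. Kif18a, which damps chromosome movements at the spindle equator, had 3.96, 3.65 and 2.24 CPM in Suz12 cKO, against 9.42, 3.17, 5.72 and 4.47 CPM in WT (Entrez 228421, chr2:109280738-109341749). The groups overlapped, since WT replicate 2 lay below Suz12 cKO replicates 1 and 2 (log2 fold change -0.80, SE 0.42, adjusted p = 0.29). With libraries high in tissue RNA alone the log2 fold change was 0.27, against 1 WT library. With those low in it alone the value was -1.56, from 1 Suz12 cKO library. Kif18b, which shortens astral microtubules, had 1.25, 0.442 and 3.57 CPM in Suz12 cKO, against 5.51, 4.63, 4.36 and 3.40 CPM in WT (Entrez 70218, chr11:102905518-102925134). Suz12 cKO replicate 3 reached into the WT range, and the log2 fold change was -1.35 (SE 0.63, adjusted p = 0.232), or -2.42 (adjusted p = 0.0408) without that library. Suz12 cKO replicate 3 was thus the lowest Suz12 cKO library for Kif2c, Kif22 and Kif18a and the highest for Kif18b, Kif20b, Kif15 and Kif23, as the plot of mitotic kinesin genes by library shows.

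**Figure D3:**
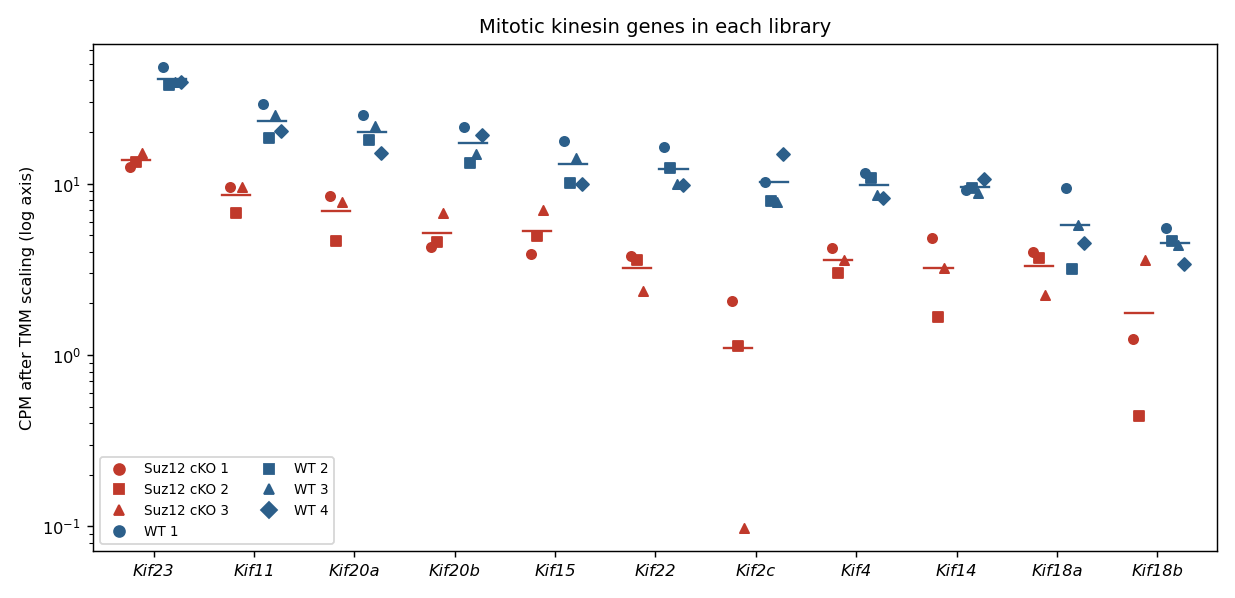
CPM of the 11 mitotic kinesin genes in each Suz12 cKO library (left, n = 3) and WT library (right, n = 4), with lines at the group means. The groups are apart for 9 genes and overlap for Kif18a and Kif18b.

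Kinesins of the same mitotic kind whose names lack the Kif-and-digit pattern were also lower. Cenpe, the motor of the kinetochore, had 6.85, 7.84 and 10.9 CPM in Suz12 cKO, against 29.2, 20.9, 21.2 and 17.5 CPM in WT (log2 fold change -1.38, SE 0.23, adjusted p = 0.00774), with each Suz12 cKO library below each WT library. Kifc1, a minus-end motor that focuses the spindle poles, averaged 4.47 ± 0.561 CPM in Suz12 cKO and 12.6 ± 3.59 CPM in WT, and Kifc5b, a near-identical copy, averaged 1.88 ± 0.230 CPM in Suz12 cKO and 5.90 ± 1.09 CPM in WT (log2 fold changes -1.49 and -1.65, adjusted p = 0.01 and 0.0107). How reads that match both were counted is not stated, so the split between them is uncertain. The calls on Kifc1 and Kifc5b were lost with the replicate number as a block. Kifc2 and Kifc3, which carry cargo toward minus ends, were not called (log2 fold changes -0.14 and 0.22, adjusted p = 0.85 and 0.385). The list of 5 thus had 3 lower and none higher, with a median of -1.38, where 4.02% of all genes tested were called lower. Since reads may be shared between Kifc1 and Kifc5b, their calls cannot be taken as separate results.

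Most partners of the mitotic kinesins fell as well. Of 38 genes of the spindle, midzone and kinetochore, 28 fell and 1 rose, with a median log2 fold change of -1.55. The share called was 76.3%, against 10.3% of all genes tested. Mki67, a protein of the chromosome surface made in cycling cells, averaged 33.5 ± 4.6 CPM in Suz12 cKO and 108 ± 10.4 CPM in WT (log2 fold change -1.68, adjusted p = 0.00045). Bub1b, of the spindle checkpoint, averaged 22.1 ± 2.77 CPM in Suz12 cKO and 62.3 ± 9.56 CPM in WT (adjusted p = 0.000978). Ncapd2, a condensin subunit, averaged 20.3 ± 1.46 CPM in Suz12 cKO and 52.6 ± 2.34 CPM in WT (-1.38). The exception that rose was Psrc1, a spindle protein (adjusted p = 0.012). Of 24 genes of DNA replication 16 fell and none rose (66.7% called), with a median of -0.97; the helicase subunit Mcm5 averaged 10.8 ± 1.18 CPM in Suz12 cKO and 28.4 ± 3.02 CPM in WT.

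Of 28 known regulators of cell cycle genes, 5 fell and 2 rose, with a median log2 fold change of -0.26. The share called was 25.0%, against 10.3% of all genes tested. Foxm1, a transcription factor of the genes of mitosis, had 4.89, 4.08 and 5.47 CPM in Suz12 cKO, against 18.3, 15.2, 15.9 and 16.9 CPM in WT, with no overlap (log2 fold change -1.79, SE 0.18, adjusted p = 0.000978). E2f2 averaged 33.6 ± 6.2 CPM in Suz12 cKO and 67.5 ± 5.71 CPM in WT (-1.01, adjusted p = 0.00308). Those that rose were Cdkn2b and Cdkn2a, inhibitors of the kinases that start the cell cycle. Cdkn2b averaged 25.7 ± 4.30 CPM in Suz12 cKO and 4.83 ± 1.70 CPM in WT (2.41, SE 0.29, adjusted p = 0.00191).

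The transport kinesins with the highest levels per length did not pass the test. Kif5b, the heavy chain of conventional kinesin, had 204, 195 and 229 CPM in Suz12 cKO, against 204, 227, 226 and 195 CPM in WT, and stood first in both genotypes at 34.7 CPM per kb in Suz12 cKO and 35.3 in WT. The groups covered nearly the same range (log2 fold change -0.02, SE 0.10, adjusted p = 0.925). Kif1c, known to carry vesicles and mRNA, had 147, 139 and 187 CPM in Suz12 cKO, against 152, 152, 162 and 169 CPM in WT (-0.01, SE 0.12, adjusted p = 0.977). Suz12 cKO libraries spanned the whole WT range. Kif13a, which moves recycling endosomes, had 202, 147 and 137 CPM in Suz12 cKO, against 142, 157, 144 and 139 CPM in WT (0.15, SE 0.14, adjusted p = 0.571), with Suz12 cKO replicate 1 above all other libraries. Kif3b, a motor subunit of heterotrimeric kinesin, had 121, 103 and 111 CPM in Suz12 cKO, against 99.3, 95.6, 106 and 107 CPM in WT (0.13, SE 0.09, adjusted p = 0.438), and these groups overlapped too. Kif13b, a relative of Kif13a, and Kif16b, which moves early endosomes, had log2 fold changes of 0.05 (SE 0.09) and 0.09 (SE 0.12). For these 6 genes the SE was 0.09 to 0.14, and a p that misses the threshold does not show equal levels.

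**Figure D4:**
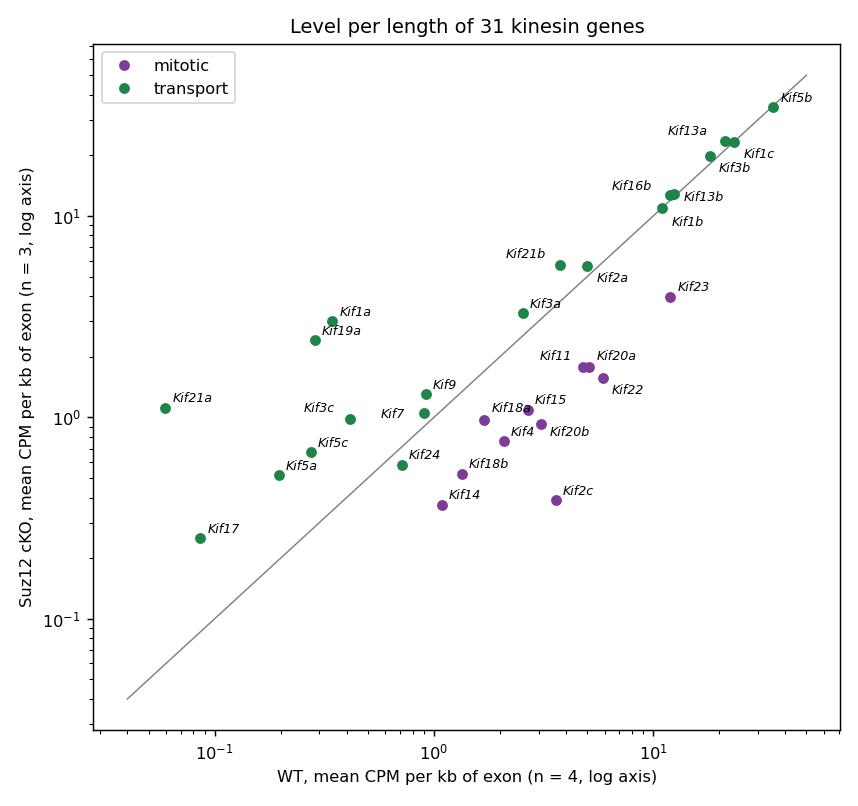
Mean CPM per kb of exon of the 31 kinesin genes in Suz12 cKO (y axis) against WT (x axis), both on log axes, with the line of equality. The high transport genes such as Kif5b (34.7 and 35.3) lie on the line, the 11 mitotic genes lie below it, and Kif1a, Kif19a and Kif21a lie above it.

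The 4 transport kinesins that rose were low in WT or of middle level. Kif1a, which in neurons carries precursors of synaptic vesicles along axons, had 20.3, 28.7 and 25.2 CPM in Suz12 cKO, against 4.15, 2.63, 2.16 and 2.43 CPM in WT (Entrez 16560, chr1:93015455-93102039). Every Suz12 cKO library was several times higher than every WT library. The log2 fold change was 3.12 (SE 0.26, adjusted p = 0.000465, edgeR), which is 8.68-fold. Per length it ranked 12 of 31 kinesins in Suz12 cKO and 26 in WT. It passed the test under each alternative setting that kept more than 1 library of each genotype. Kif19a, which shortens microtubules at the tips of cilia, had 11.4, 8.62 and 4.93 CPM in Suz12 cKO, against 0.958, 0.968, 1.29 and 0.701 CPM in WT (Entrez 286942, chr11:114764970-114791166; log2 fold change 3.08, SE 0.38, adjusted p = 0.00221). All Suz12 cKO libraries were above all WT libraries, and the 2 that are high in tissue RNA were the highest; with libraries low in tissue RNA alone the log2 fold change was 2.31, from 1 Suz12 cKO library.

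Kif21b, known in neurons and immune cells for limiting microtubule growth, had 54.0, 53.0 and 49.4 CPM in Suz12 cKO, against 35.2, 43.5, 27.8 and 30.9 CPM in WT (Entrez 16565, chr1:136131390-136178001). The Suz12 cKO libraries were close together and above all WT libraries, with WT replicate 2 nearest (log2 fold change 0.60, SE 0.15, adjusted p = 0.0364). Kif3c, a motor subunit that pairs with Kif3a, had 5.40, 7.26 and 7.40 CPM in Suz12 cKO, against 2.09, 3.46, 3.49 and 2.35 CPM in WT (Entrez 16570, chr12:3365132-3406494; log2 fold change 1.23, SE 0.30, adjusted p = 0.0363). The groups did not overlap. Both calls were lost on leaving out any 1 library other than WT replicate 2, with adjusted p of 0.0721 to 0.119 for Kif21b and 0.065 to 0.129 for Kif3c. Both were also lost with the replicate number as a block, and that on Kif3c with a term for tissue RNA. With libraries high in tissue RNA alone the log2 fold changes were 0.30 for Kif21b and 0.87 for Kif3c, against 1 WT library. Of the 7406 exon bases of Kif3c, 2617 overlap the antisense transcript 1110002L01Rik, which averaged 0.549 CPM.

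The genes named next were chosen after their values were seen. Kif21a, a relative of Kif21b known in axon growth (Entrez 16564, chr15:90933275-91050382), had 7.97, 6.24 and 7.39 CPM in Suz12 cKO, against 0.585, 0.952, 0 and 0 CPM in WT, where 0 counts allow up to 0.0511 and 0.0619 CPM (3 counts, counting error only). The groups were far apart, but the log2 fold change of 4.20 had an SE of 1.26 and did not pass the test (adjusted p = 0.0695, edgeR). It passed without WT replicate 2 (adjusted p = 0.0224, edgeR), with limma-voom and with a term for tissue RNA. It did not pass on leaving out any other library, with DESeq2, with other scalings, with no filter or with the replicate block. Kif5a and Kif5c, the neuronal relatives of Kif5b, had 3.27, 2.45 and 5.14 CPM and 2.05, 3.70 and 8.0 CPM in Suz12 cKO. In WT, Kif5a had 2.46, 1.36, 0.749 and 0.907 CPM and Kif5c had 2.65, 0.870, 2.40 and 1.59 CPM. Both overlapped between the genotypes, with Suz12 cKO replicate 3 the highest library (log2 fold changes 1.40 and 1.29, adjusted p = 0.143 and 0.196). Kif5c passed only with a term for tissue RNA (adjusted p = 0.0269, edgeR), and Kif5a passed under no alternative. Kif17, which acts in dendrites and cilia, had 0.410, 0.944 and 1.60 CPM in Suz12 cKO, against 0.124, 0.295, 0.307 and 0.619 CPM in WT (1.55, SE 0.94, adjusted p = 0.369). The remaining transport kinesins, Kif1b, Kif2a, Kif3a, Kif7, Kif9 and Kif24, had log2 fold changes of -0.29 to 0.51 and were not called.

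**Figure D5:**
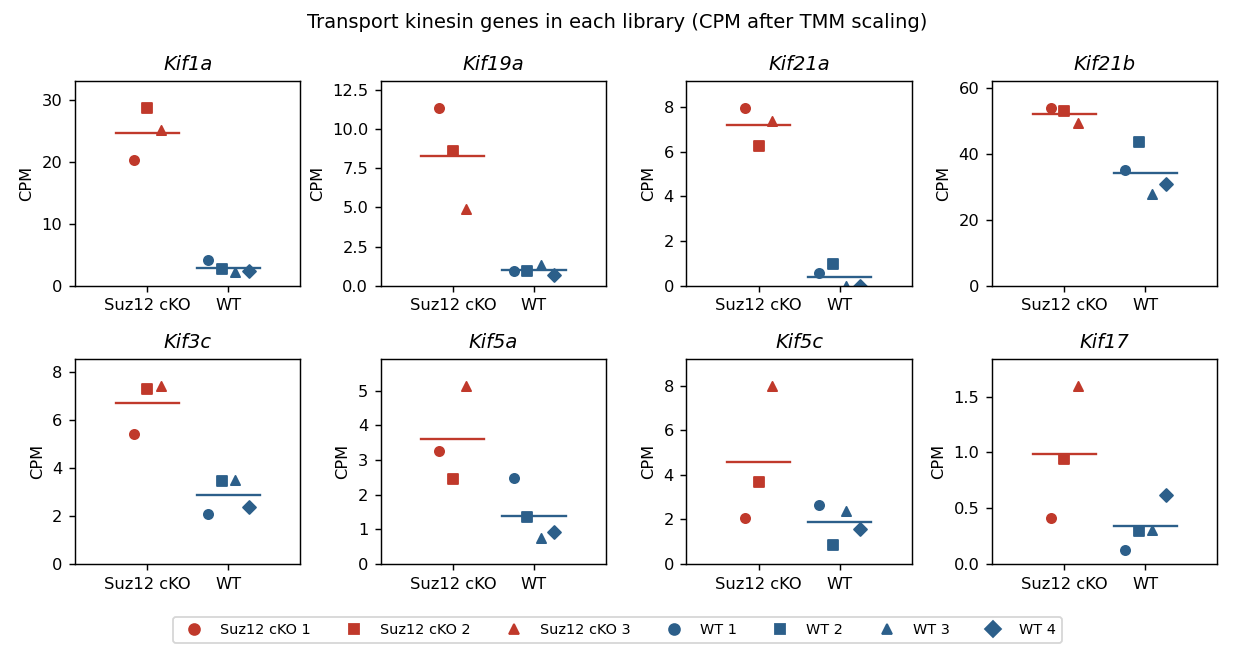
CPM of 8 transport kinesin genes in each Suz12 cKO library (left, n = 3) and WT library (right, n = 4), with lines at the group means. The groups are apart for Kif1a, Kif19a, Kif21a, Kif21b and Kif3c and overlap for Kif5a, Kif5c and Kif17.

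Several of the transport kinesins that rose are best known from neurons or ciliated cells, so the markers of those cells were summed. Ciliated airway markers summed to 136 to 170 CPM in Suz12 cKO and 232 to 327 CPM in WT, nearly all from Tppp3. Without Tppp3 they summed to 3.52 to 4.70 CPM in Suz12 cKO and 3.10 to 4.51 CPM in WT, with 2 of 12 at 1 CPM or more and Tekt1 and Dynlrb2 at 0. Neuron markers summed to 51.6 to 60.8 CPM in Suz12 cKO and 52.7 to 61.9 CPM in WT, nearly all from Syn1; without it, to 1.40 to 2.79 CPM in Suz12 cKO and 0.454 to 1.0 CPM in WT, with 1 of 9 at 1 CPM or more and Snap25, Syt1 and Nefl at 0. Fibroblast and smooth muscle markers summed to 35.2 to 45.3 CPM in Suz12 cKO and 4.66 to 27.6 CPM in WT. Pdgfra alone gave 29.6 to 37.0 CPM in Suz12 cKO and 0 to 2.39 CPM in WT, and the others summed to 3.48 to 8.28 CPM in Suz12 cKO and 4.24 to 26.3 CPM in WT, with 4 of 9 at 1 CPM or more. The ranges did not overlap between the genotypes for the ciliated, monocyte and fibroblast lists as a whole. Nor did the ranges overlap for neuron markers without Syn1 or for the neutrophil markers given above. For monocyte markers without Fn1 they overlapped through WT replicate 2 alone, since the other WT libraries reached at most 298 CPM. For fibroblast markers the ranges overlapped without Pdgfra. They also overlapped for alveolar epithelium (20.4 to 39.9 CPM in Suz12 cKO and 14.8 to 46.6 CPM in WT), endothelium (77.6 to 113 CPM in Suz12 cKO and 98.2 to 106 CPM in WT) and lymphocytes (1.67 to 15.8 CPM in Suz12 cKO and 0.907 to 7.02 CPM in WT). The part of these markers in the kinesin values was not tested.

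Of 23 light chains, accessory chains and cargo adaptors of transport kinesins tested, 2 rose and none fell, with a median log2 fold change of 0.06; the 8.7% called is near the 10.3% over all genes. Kifap3, the accessory chain of heterotrimeric kinesin, had 39.2, 34.4 and 39.9 CPM in Suz12 cKO, against 27.1, 30.1, 26.2 and 27.4 CPM in WT (0.45, SE 0.11, adjusted p = 0.0301). Map7, a cofactor that recruits conventional kinesin to microtubules, had 16.7, 21.3 and 12.1 CPM in Suz12 cKO, against 1.34, 1.94, 0.102 and 0 CPM in WT (4.28, SE 1.06, adjusted p = 0.0367). For both genes each Suz12 cKO library was above each WT library. The call on Kifap3 was lost without any 1 library other than WT replicate 2 (adjusted p = 0.0502 to 0.107), and that on Map7 without any 1 library other than WT replicates 2 and 4 (0.0681 to 0.118).

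The 7 kinesin genes outside the rule were at or near 0. Kif26a had 60 counts in WT replicate 2, Kif26b, Kif27 and Kif6 had 34, 26 and 2 counts in Suz12 cKO replicate 2, and the pseudogene Kif4-ps had 1 count in WT replicate 1, all with 0 counts in the other libraries; Kif2b and Kif12 had no count in any library. The member nearest the rule's edge was Kif21a, with counts in 5 libraries, while the other members had counts in all 7.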

How the data were processed

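Polyadenylated RNA of 7 samples (3 Suz12 cKO, 4 WT) went through TruSeq library preparation and single-end sequencing (85 bases), per the labels' protocols and design text. The deposited values are whole-number counts, which the authors made with featureCounts on mm10, per the submitters' processing notes; its version, the aligner, the annotation and the strand setting were not given in the sources used here. The counts were filtered with filterByExpr (minimum count 10, total 15), scaled by TMM and tested in R 4.3.3 by the quasi-likelihood method of edgeR 4.0.16, genotype being the only term and positive values meaning higher in Suz12 cKO. Benjamini-Hochberg adjustment ran over all 14436 genes tested. SE is the log2 fold change divided by the square root of F. CPM include the TMM factors; groups are given as mean ± SD. CPM per kb used the deposited exon length. Of 27179 genes, 25275 matched RefSeq GRCm38.p6 by Entrez number. Libraries held 48104653 to 79281431 counts, above the stated yield of 14 to 20 times 1e6 reads, and the labels do not say why. Counting floors cover counting error only. No replicate was a copy of another (Pearson's r across genes 0.916 to 0.969). The split by tissue RNA (haemoglobin above 20 CPM) was made after the data had been seen. Alternatives were DESeq2 1.42.0, limma 3.58.1 with voom, other scalings, no filter, a replicate block, the tissue-RNA settings and leaving out each library. The procedure was tested on simulated data. The members and gene lists were chosen with earlier results of these data known. Named were Suz12, all mitotic kinesins, called transport kinesins, the 6 highest transport kinesins per length, kinesins outside the name pattern, and list members with the smallest p.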

Additional observations from a re-analysis of the deposited data

Results flagged for a closer look

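In the WT group of 4, the highest or lowest library was compared with its nearest neighbour for 42 values, the 31 kinesin genes among them; chance flags about 1 in 20 such groups. Kif23 in WT replicate 1, at 47.8 CPM, stood above the other WT libraries by 0.849 of the group's range, past Dixon's critical value for 4 samples. WT replicate 1 was the highest WT library for 9 of 11 mitotic kinesin genes. Kif7, a ciliary kinesin of hedgehog signalling, was at 2.61 CPM in WT replicate 2, below the other WT libraries by 0.871 of the group's range.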

How the results depend on the processing

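Each of 17 alternative settings was applied to the 31 kinesin genes. Of these 527 results, 39 lost the call, 6 gained one, and none reversed among called genes. The others kept their side of the threshold. Of them, 469 kept their sign or changed it with a shift under 1 SE. The other 13, with no call under either setting, changed sign with a shift of 1 SE or more. Among the 527 results, 28 changes of sign concerned kinesins called under neither setting, in 10 genes. Under the alternatives no mitotic kinesin was called higher and no transport kinesin lower. Mitotic kinesins called lower were 9 of 11, or 6 to 9 on leaving out a library. The replicate block lost the calls on Kif2c, Kif14 and Kif15. Transport kinesins called higher were 4 of 20, or 2 to 5 on leaving out a library and 2 with the replicate block. Among other genes named here, the block lost the calls on Kifc1, Kifc5b, Kifap3, Nde1, Tubb5 and Ift81. Within either tissue-RNA side 1 genotype has a single library, assumed to vary like the others. Calls within a side enter the counts of the 527 results but are not given by themselves. Over all genes, 1486 were called, with genes called higher numbering 906 and genes called lower 580. DESeq2 gave 2241 (1393 higher), the replicate block 810 (549 higher, 261 lower), libraries low in tissue RNA alone 983 (367 lower), and those high in it 328 lower. Leaving out a library gave 715 to 2400 calls, 447 to 1515 higher and 268 to 885 lower. Same-numbered libraries deviated from their group means with correlations of -0.0411, 0.242 and 0.158. Libraries with different numbers were not compared in this way, so these values cannot tell whether the numbers pair the libraries. The cause of these differences was not tested, though a setting with fewer libraries has fewer residual degrees of freedom.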

Other observations

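Other parts of the microtubule system were described as lists. Of 25 tested genes of cytoplasmic dynein and dynactin, the minus-end motor that works against the kinesins, 2 rose and 2 fell, with a median log2 fold change of -0.09; the 4 called are 16% of the list, against 10.3% of all genes tested. Bicd1, a cargo adaptor of dynein, averaged 12.3 ± 3.29 CPM in Suz12 cKO and 2.50 ± 1.29 CPM in WT (2.30, SE 0.43, adjusted p = 0.0116, edgeR; 0.0561 without Suz12 cKO replicate 2). Nde1, a dynein regulator, averaged 35.2 ± 2.0 CPM in Suz12 cKO and 50.1 ± 4.35 CPM in WT (-0.51, adjusted p = 0.0154), a call lost without Suz12 cKO replicate 1, Suz12 cKO replicate 2 or WT replicate 3 (0.0519 to 0.0689). Of 15 tested tubulins 2 fell and none rose (13.3% called), with a median of -0.19; Tubb5 averaged 104 ± 4.79 CPM in Suz12 cKO and 160 ± 22.4 CPM in WT (-0.62, adjusted p = 0.0157), a call lost without any 1 Suz12 cKO library (0.0548 to 0.0599). Of 23 tested genes of intraflagellar transport and the cilium, 1 rose and none fell (4.35% called), with a median of 0.09; Ift81 averaged 8.79 ± 3.00 CPM in Suz12 cKO and 4.06 ± 0.617 CPM in WT (1.11, adjusted p = 0.0401). The call on Ift81 was lost with limma-voom (0.0605), with a term for tissue RNA (0.0994), and without any 1 library other than Suz12 cKO replicate 3 and WT replicate 2 (0.0734 to 0.173).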
